A study of Mus musculus with 4 samples.

Results

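The spliceosome and splicing factor genes were taken by name from the genes annotated as protein-coding, as every gene whose symbol begins with Snrp, Lsm and a digit, Sf3a, Sf3b, U2af, Prpf, Srsf and a digit, or Hnrnp. This gave 78 of the 13614 genes in the table, out of 81 such names in the GENCODE M21 mouse annotation. The remaining 3, Snrpn, Srsf12 and U2af1l4, were not analysed here. Expression was measured by RNA sequencing in mouse fetal liver cells taken between embryonic days 14.5 and 16.5 and transduced with the retroviral vector MSCV-MLL-AF9-IRES-GFP. The vector carries MLL-AF9, a fusion oncogene of acute leukemia, and GFP+ cells were sorted from both genotypes, so the controls carry the fusion as well. The Prl2 knockout group (Prl2-/-) and the wild type group (Prl2+/+) held 2 libraries each. Ptp4a2 is the current symbol of Prl2. It encodes a small membrane-bound phosphatase, and the study asked which genes and pathways differ without it. The deleted stretch of Ptp4a2 is not named in the labels, nor whether replicates are separate embryos or cultures. The p-values therefore cover the spread of these libraries alone.

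Introns are removed by the spliceosome, which is built from small nuclear ribonucleoproteins (snRNPs), particles of a small nuclear RNA and proteins. Sm proteins form a ring around the RNAs of U1, U2, U4 and U5, and the related LSm proteins form one on U6. U1 pairs with the start of an intron, U2AF and the SF3A and SF3B complexes of U2 mark its end and branch point, and the U4/U6.U5 particle brings the PRPF proteins of the catalytic core. SR proteins and hnRNP proteins bind the transcript and raise or lower the use of particular exons. MLL-AF9 leukemia cells divide fast and produce much RNA, and mutations of SF3B1, U2AF1 and SRSF2 are recurrent in human myeloid disease.

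The library totals lay between 14625725 and 15422309 counts. Ptp4a2 had 89 and 104 counts in the Prl2 knockout libraries and 4884 and 5105 in the wild type libraries, so each library matched its label (edgeR quasi-likelihood test, log2 fold change -5.72, SE 0.143, adjusted p = 0.000429). Its adjusted p was 0.113 when Prl2 knockout replicate 1 was left out and 0.0832 when Prl2 knockout replicate 2 was. All 12 markers of myeloid progenitors in the MLL-AF9 programme, such as Hoxa9, Meis1 and Mpo, were measured, 11 of them with a negative log2 fold change. Their summed level was 5298 and 3690 CPM in the knockout against 5075 and 9020 CPM in the wild type. Of 7 hepatocyte markers, 0 were in the table. Of 10 erythroid markers 5 were measured, with summed levels of 4.84 and 8.78 CPM in the knockout and 27.3 and 14.8 CPM in the wild type. Of 8 B-cell markers 3 were measured, at 309 and 363 CPM in the knockout and 477 and 442 CPM in the wild type. Of 8 macrophage markers 3 were measured, 2 with a positive and 1 with a negative log2 fold change. Their summed level was 798 and 1062 CPM in the knockout and 410.03 and 469.5 CPM in the wild type. Of 5 endothelial markers 1 was measured, at 207 and 309 CPM in the knockout and 393 and 202 CPM in the wild type. CPM (a count scaled to a common library size) was scaled here by the TMM method. The part of these cell types in the results below was not tested. In bulk samples, fewer cells of a type and less RNA per cell cannot be told apart.

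No splicing gene passed the test between the genotypes. At an adjusted p of 0.05 or less, edgeR's quasi-likelihood test called 0 of the 78, against 0.00735% of all genes (Ptp4a2 alone), and their smallest adjusted p was 0.474. DESeq2 called 2 of the 78, against 0.661% of all genes, Prpf8 with a higher and Hnrnpa1 with a lower level in the knockout, while edgeR's likelihood ratio test and limma-voom called 0. The authors' deposited table lists 0 of them at that threshold, against 0.477% of all genes. At an unadjusted quasi-likelihood p under 0.05 there were 9 members, 2 of them higher in the knockout and 7 lower, where 5.66% and 4.23% of all genes had such values. The 2 were Prpf8 and Hnrnpul1, and the 7 were Hnrnpa1, Srsf5, Lsm4, Srsf3, Srsf6, Sf3b5 and Snrpe.

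Small differences were common, and more of them were negative than positive. Of the 78 genes, 28 had a log2 fold change above 0 and 50 below it, where 49.1% of all genes lay above and 50.9% below. The median was -0.076 on the log2 scale over the 78, against -0.0059 over all genes. Without Prl2 knockout replicate 2, 35 lay above 0 and 43 below, and the median was -0.028. Both knockout values lay above both wild type values for 12 members and below them for 28. Over all genes these shares were 22.2% and 21.9%, so the 12 are 15.4% and the 28 are 35.9% of the members. Together the members took 1.65% and 1.60% of all counts in the knockout libraries and 1.74% and 1.64% in the wild type libraries. The 4 shares overlap between the genotypes. Without each library in turn, 52 of the 78 kept the sign of their fold change.

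**Figure D1:**
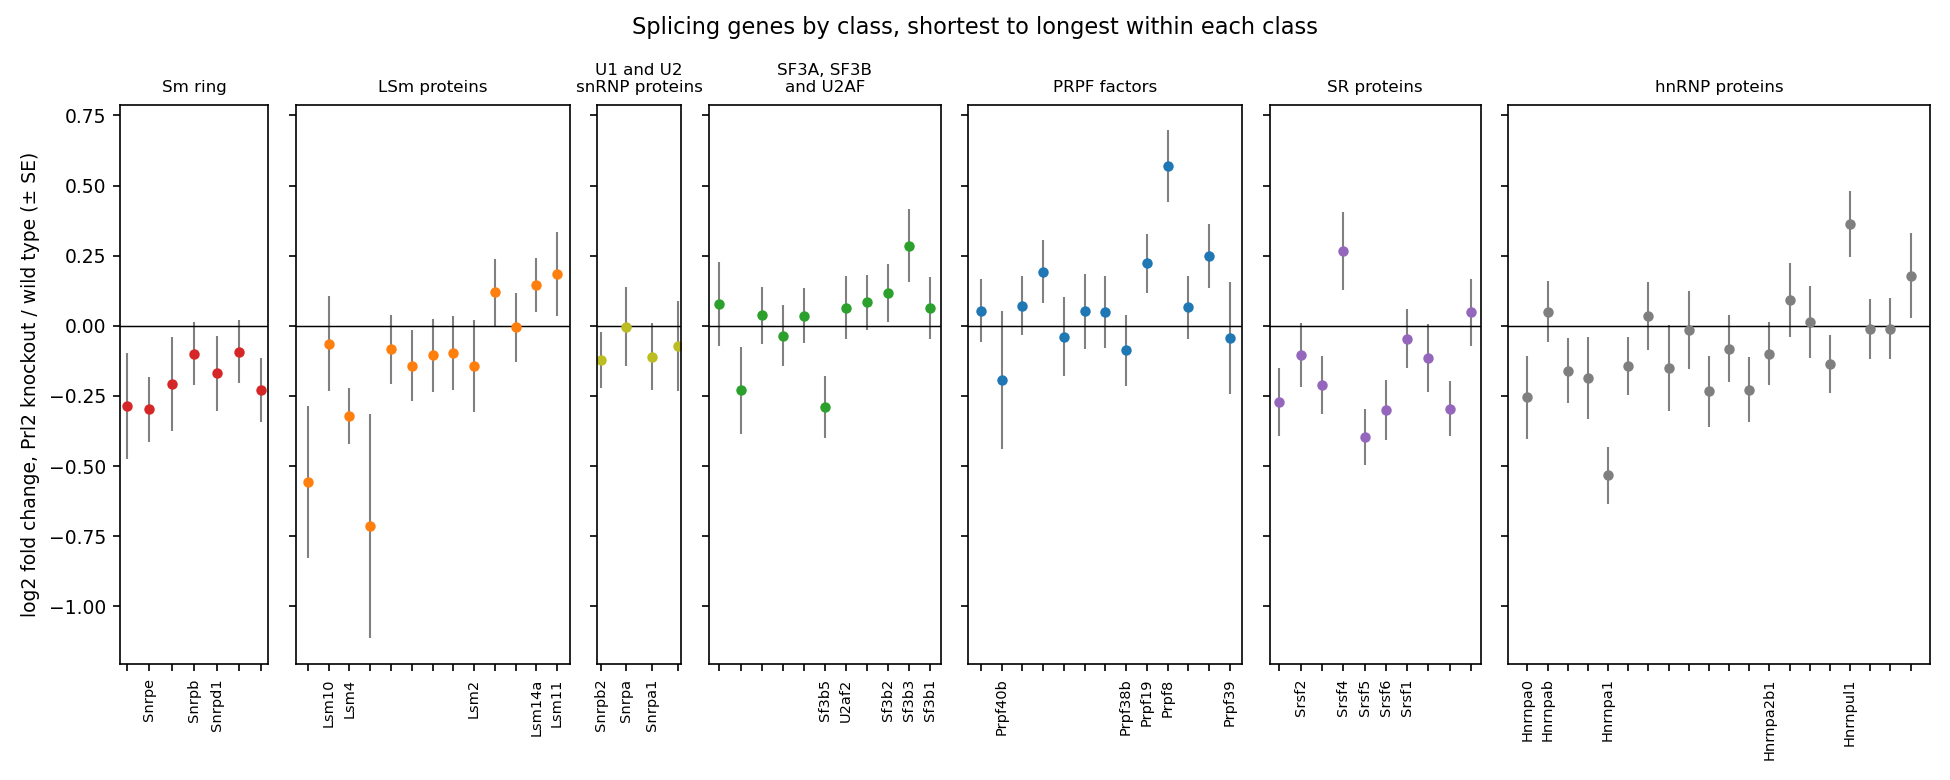
Log2 fold change, Prl2 knockout over wild type, with its SE from edgeR (y axis) for each of the 78 splicing genes (x axis), in 7 classes and ordered within a class from the shortest to the longest gene, with names for the genes chosen by the naming rule. All 7 Sm ring genes lie below 0, 9 of 13 PRPF factors lie above it, and Prpf8 (0.57) and Hnrnpa1 (-0.53) stand farthest out among genes with small errors.

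The Snrp and Lsm genes, grouped by name as small core proteins, had mostly lower values in the knockout. Among the 24, 21 lay below 0 and 3 above, at a median log2 fold change of -0.11. Without Lsm10, Lsm11, Lsm12, Lsm14a and Lsm14b, which are not part of the rings on spliceosomal RNAs, 18 of 19 lay below 0 and the median was -0.14. The 19 still hold Lsm1 and the 4 genes of U1 and U2 proteins, which are not in those rings either. Among all 24, knockout values lay below those of the wild type without overlap for 13 and above for 2. Among the 19 these counts were 12 and 0. Over all genes the shares were 21.9% below and 22.2% above. The mean log2 CPM of the 24, centred on each gene's mean over the libraries, was -0.018 and -0.12 in the knockout libraries. In the wild type libraries it was 0.079 and 0.063. The groups did not overlap, and the 2 knockout libraries lay farther from each other than the wild type libraries did.

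All 7 measured members of the Sm ring had a negative fold change, from -0.30 for Snrpe to -0.092 for Snrpd2, with a median of -0.21. In 6 of the 7 both knockout values lay below both wild type values, which held for 21.9% of all genes. Snrpe, which encodes SmE, lies on the minus strand of chromosome 1 (GRCm38, 133603871 to 133610291). It was at 70.4 and 66.7 CPM in the knockout against 89.3 and 79.3 CPM in the wild type, and its log2 fold change was -0.30 (SE 0.116, edgeR quasi-likelihood adjusted p = 0.501). Both knockout libraries lay below both wild type libraries. Snrpd3 was at 125.4 and 109 CPM in the knockout and 140.3 and 134 CPM in the wild type, and its values did not overlap either. Snrpf had 15.9 and 14.1 CPM in the knockout and 16.9 and 19.6 CPM in the wild type. Snrpg, the smallest Sm protein, had 20.9 and 17.8 CPM in the knockout and 22.7 and 22.0 CPM in the wild type. Snrpb, which encodes SmB and was the highest of the ring per length, stood at 395 and 352 CPM in the knockout against 399 and 402 CPM in the wild type. Its knockout replicate 1 was within 3.3 CPM of the nearest wild type library, so the lack of overlap there is narrow. In Snrpd1 the groups overlapped, at 87.1 and 71.1 CPM in the knockout against 91.5 and 86.5 CPM in the wild type. The Sm ring stayed negative in 7 of 7 genes without each library in turn, with medians between -0.33 and -0.099. The median nearest 0, -0.099, was that without Prl2 knockout replicate 2. By library, the mean centred log2 CPM of the ring was -0.013 and -0.19 in the knockout against 0.11 and 0.086 in the wild type. Knockout replicate 2 thus lay farther from the wild type than knockout replicate 1 did.

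Of 13 LSm genes, 10 lay below 0 and 3 above, and the median was -0.096. Lsm1 to Lsm8 encode the rings that bind U6 RNA in the nucleus and decaying mRNA in the cytoplasm, Lsm10 and Lsm11 belong to the U7 particle that trims histone mRNA, and Lsm14a and Lsm14b are proteins of processing bodies. Lsm4, the highest of the class per length, was at 120.05 and 113 CPM in the knockout against 150.4 and 141 CPM in the wild type (log2 fold change -0.32, SE 0.101, edgeR quasi-likelihood adjusted p = 0.474). The groups did not overlap. The lowest fold changes of all 78 genes belonged to Lsm7 (-0.71, SE 0.400) and Lsm5 (-0.56, SE 0.270), which had few reads. Lsm7 had 20 and 16 counts in the knockout and 30 and 28 in the wild type, and Lsm5 had 65 and 73 counts against 108 and 91. Lsm2 had one of the widest gaps between replicates, at 58.5 and 43.9 CPM in the knockout against 57.0 and 56.2 CPM in the wild type. The 3 genes with a positive value were Lsm6 (0.12), Lsm14a (0.15) and Lsm11 (0.18), which are 3 of the 4 longest genes of the class. Lsm14a was at 194 and 187 CPM in the knockout and 171 and 173 CPM in the wild type, and Lsm11 at 27.1 and 24.8 CPM in the knockout and 22.2 and 23.4 CPM in the wild type. Lsm10 had 18.8 and 17.6 CPM in the knockout and 19.9 and 18.3 CPM in the wild type, which overlap.

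The 4 genes of U1 and U2 proteins lay close to 0, with fold changes from -0.12 to -0.0027. Snrpb2, which encodes the U2 protein B″, was at 83.0 and 83.2 CPM in the knockout and 90.7 and 90.1 CPM in the wild type, without overlap. Snrpa1, its partner U2 protein A′, was at 70.4 and 62.9 CPM in the knockout and 74.5 and 69.4 CPM in the wild type. In Snrpa, the U1 protein A, the wild type libraries stood at 64.0 and 80.0 CPM on either side of the knockout, which had 73.4 and 70.3 CPM. Snrpc, the U1 protein C, was at 27.0 and 24.1 CPM in the knockout and 24.9 and 28.8 CPM in the wild type.

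Factors of branch point and 3′ splice site recognition had mostly small positive fold changes. Of 11 SF3A, SF3B and U2AF genes, 8 were positive and 3 negative, with a median of 0.063. The largest subunits were Sf3b1, at 643 and 639.6 CPM in the knockout against 641 and 587 CPM in the wild type, and Sf3b3, at 444 and 371 CPM in the knockout against 349 and 320.1 CPM in the wild type. Sf3b1, which encodes the subunit that clamps the branch point, differed by 0.063 on the log2 scale (95% interval -0.21 to 0.34), and its groups overlapped. For Sf3b3 the value was 0.29 (95% interval -0.038 to 0.61), and the groups did not overlap. Sf3b2 was at 528 and 518 CPM in the knockout and 469.9 and 495 CPM in the wild type.

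The small SF3B subunit gene Sf3b5 had the most negative fold change of the class. It was at 97.8 and 89.2 CPM in the knockout and 119 and 109.8 CPM in the wild type (log2 fold change -0.29, SE 0.109, edgeR quasi-likelihood adjusted p = 0.494). U2af1 and U2af2 encode the small and large subunits of the factor that binds the 3′ splice site. U2af1 was also lower without overlap, at 30.5 and 25.2 CPM in the knockout against 33.0 and 32.4 CPM in the wild type (log2 fold change -0.23, SE 0.154). U2af2 was at 239 and 213 CPM in the knockout and 225 and 207 CPM in the wild type, which overlap. Without Prl2 knockout replicate 1 the class had 5 positive and 6 negative values and a median of -0.0044.

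Among 13 PRPF factors, 9 fold changes were above 0 and 4 below, and the median was 0.054. In 5 of the 13 the knockout lay above the wild type without overlap, where the share over all genes was 22.2%. Prpf8 encodes the large U5 protein that cradles the catalytic RNA of the spliceosome. The gene lies on the plus strand of chromosome 11 (GRCm38, 75486816 to 75509449). It was at 648 and 574 CPM in the knockout against 385 and 439 CPM in the wild type, from 9905 and 8695 counts in the knockout and 5750 and 6519 in the wild type. Its mean was 611 ± 52.2 CPM in the knockout and 412 ± 38.5 CPM in the wild type (SD, n = 2 each). The log2 fold change was 0.57 (SE 0.127, 95% interval 0.25 to 0.89) in edgeR's quasi-likelihood fit (adjusted p = 0.474). DESeq2 gave an adjusted p of 0.0263, the authors' deposited table gave 0.179, and the alternatives with all 4 libraries other than DESeq2 ranged from 0.179 to 0.644. Without each library in turn the log2 fold change lay between 0.47 and 0.66.

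Other PRPF genes had smaller differences. Prpf19, a ubiquitin ligase needed for the activation of the spliceosome, was at 292 and 275 CPM in the knockout and 234 and 252 CPM in the wild type. Its groups did not overlap, and its log2 fold change was 0.22 (SE 0.105). Prpf38b was at 159 and 148.4 CPM in the knockout and 178 and 148.5 CPM in the wild type. Prpf39 had the widest gap between wild type libraries for its level, at 62.7 and 42.9 CPM, with 53.6 and 48.8 CPM in the knockout between them. Prpf40b was the lowest of the class, at 7.33 and 9.58 CPM in the knockout and 10.1 and 9.23 CPM in the wild type. Without wild type replicate 2, 6 of the 13 were positive and the median was -0.0035.

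SR proteins had the second lowest class median, after the Sm ring. Of 10 genes, 8 lay below 0 and 2 above, and the median was -0.16. For 5 of the 10 the knockout lay below the wild type without overlap, where the share over all genes was 21.9%. Srsf5, which promotes the inclusion of exons, lies on the plus strand of chromosome 12 (GRCm38, 80945504 to 80950507). It was at 231 and 221 CPM in the knockout against 304 and 291 CPM in the wild type, a mean of 226 ± 7.18 CPM against 298 ± 9.25 CPM (SD, n = 2 each). Its log2 fold change was -0.40 (SE 0.100, 95% interval -0.64 to -0.15, edgeR quasi-likelihood adjusted p = 0.474). Srsf6 was at 412 and 378 CPM in the knockout and 496 and 477 CPM in the wild type, and Srsf3, the smallest SR protein, at 226 and 224 CPM in the knockout and 283 and 269 CPM in the wild type. Their log2 fold changes were -0.30 (SE 0.108) and -0.29 (SE 0.099), and neither had overlapping groups. Srsf7 and Srsf9 also lay lower without overlap. Srsf7 was at 249 and 237 CPM in the knockout and 292 and 269.9 CPM in the wild type, and Srsf9 at 104 and 113 CPM in the knockout and 141 and 120.4 CPM in the wild type.

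The most abundant SR genes per length included Srsf2 and Srsf1, and in both the groups overlapped. Srsf2 was at 436 and 391 CPM in the knockout and 432 and 457 CPM in the wild type. Srsf1, the founding member of the family, was at 484 and 487 CPM in the knockout and 516 and 486 CPM in the wild type, and its log2 fold change was -0.046 (95% interval -0.30 to 0.21). Srsf4 was the one SR gene higher without overlap, at 44.2 and 38.1 CPM in the knockout against 33.0 and 35.4 CPM in the wild type (log2 fold change 0.27, SE 0.139, edgeR quasi-likelihood adjusted p = 0.564). Without each library in turn, 9 of the 10 kept their sign. The rule for membership did not use isoforms. In GENCODE M21, 9 of the 10 SR genes have an annotated transcript of the nonsense-mediated decay type, against 29.6% of all protein-coding genes in the table and 47.4% of the 78 splicing genes. In the list of 18 SR-like proteins and their kinases, described below, the share was 94.4%. SR genes are known for such transcripts, often with a premature stop in a so-called poison exon. Gene-level counts sum productive and unproductive transcripts, and their shares were not measured here.

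**Figure D2:**
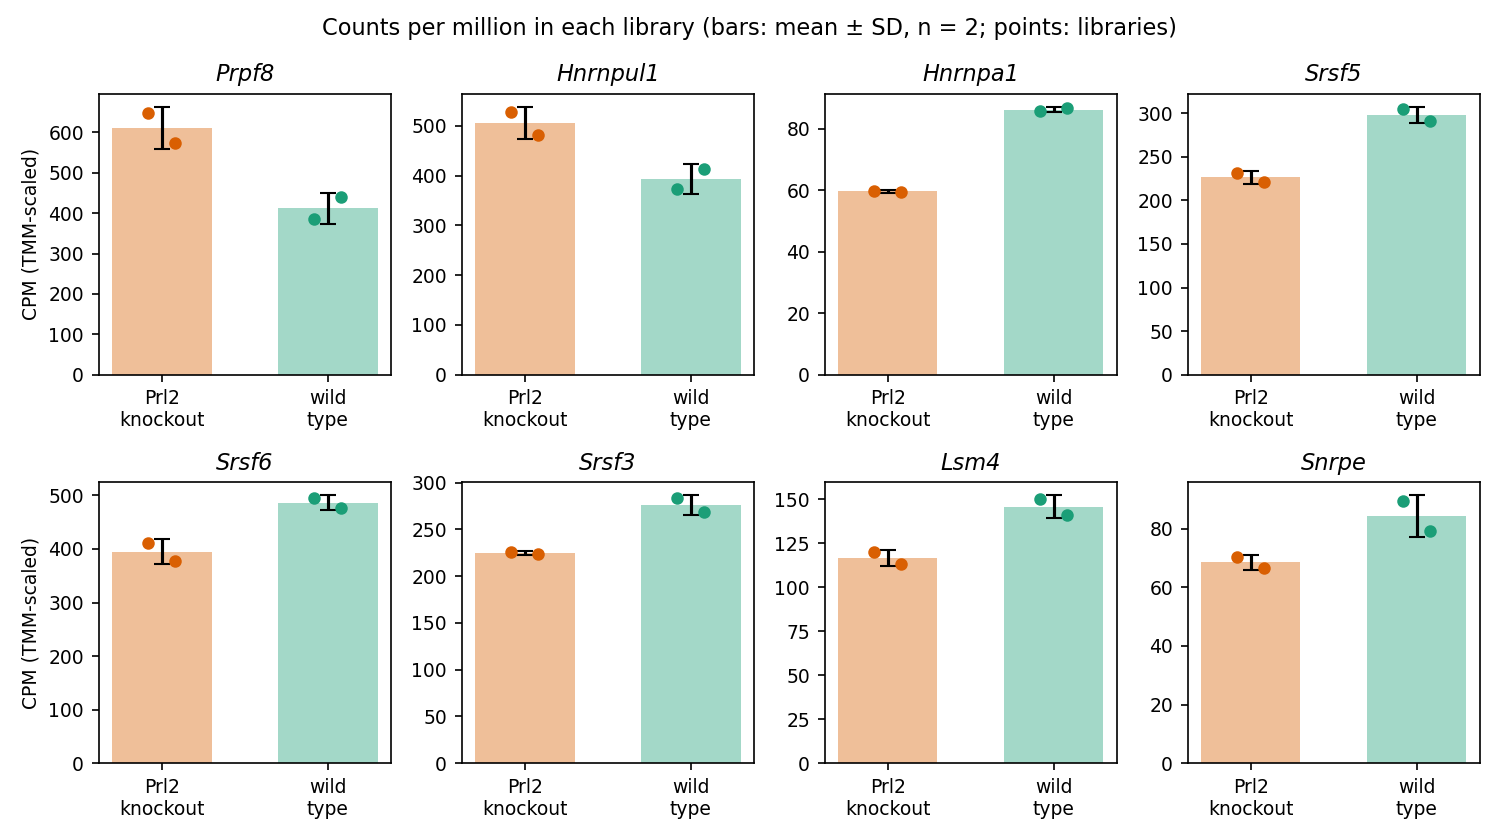
TMM-scaled CPM (y axis, from 0) of 8 members in the Prl2 knockout and wild type groups, with bars for the mean ± SD of 2 libraries and points for the libraries. The 8 are from the members with an unadjusted edgeR quasi-likelihood p under 0.05, so they were picked by these values. Sf3b5, also under that threshold, is not shown. Prpf8 and Hnrnpul1 are higher in both knockout libraries, Hnrnpa1, Srsf5, Srsf6, Srsf3, Lsm4 and Snrpe are lower in both, and none passed edgeR's test over all genes.

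hnRNP genes split by gene, and 3 of them had the highest levels per length of all members. Of 20, 14 lay below 0 and 6 above, and the median was -0.090. Hnrnpa2b1, an RNA-binding protein of nuclear transcripts, had the highest level of all members per length, at 1600.1 and 1627 CPM in the knockout and 1756 and 1700.1 CPM in the wild type. The groups did not overlap, and the log2 fold change was -0.099 (SE 0.112). Hnrnpa0 was at 518 and 625 CPM in the knockout and 739 and 626 CPM in the wild type, where the closest libraries of the genotypes differed by 0.892 CPM. Hnrnpab was at 578 and 574 CPM in the knockout and 579 and 533 CPM in the wild type, which overlap. Hnrnpu, a nuclear scaffold protein, was at 954 and 999 CPM in the knockout and 987 and 981 CPM in the wild type, with a log2 fold change of -0.011 (95% interval -0.28 to 0.26).

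Hnrnpa1, an hnRNP that represses exons, lies on the plus strand of chromosome 15 (GRCm38, 103240432 to 103246692). It was at 59.9 and 59.2 CPM in the knockout against 85.6 and 86.8 CPM in the wild type. The replicates lay within 1.21 CPM of each other in each genotype, and the mean was 59.6 ± 0.44 CPM in the knockout and 86.2 ± 0.853 CPM in the wild type (SD, n = 2 each). The log2 fold change was -0.53 (SE 0.103, 95% interval -0.79 to -0.28, edgeR quasi-likelihood adjusted p = 0.474). DESeq2 gave an adjusted p of 0.0471 and the authors' deposited table gave 0.263, and the alternatives with all 4 libraries other than DESeq2 ranged from 0.263 to 0.644. Without each library in turn the log2 fold change stayed between -0.56 and -0.53. Hnrnpul1, an hnRNP U relative, was the highest hnRNP gene by fold change, at 529 and 483 CPM in the knockout and 372 and 414 CPM in the wild type (log2 fold change 0.36, SE 0.117, edgeR quasi-likelihood adjusted p = 0.474). Its relative Hnrnpul2 overlapped between the groups, at 647 and 680.0 CPM in the knockout and 564 and 682 CPM in the wild type.

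Promoter stretches are shown for the 3 members with an unadjusted p under 0.01 and for Snrpe, the Sm gene with the smallest p. Members of other classes, such as Lsm4 and Hnrnpul1, had a smaller p than Snrpe and are not shown. Each is the 150 bases before the gene start in RefSeq (GRCm38.p6), 5′ to 3′ on the gene's strand. Capitals mark matches on either strand to the ETS motif CCGGAAG, the E-box CACGTG, the NRF1 motif (GCGC, any base, TGCGC), the CCAAT box CCAAT, the TATA box TATAAA or the GC box GGGCGG.
Prpf8, chr11:75486627-75486776, plus strand: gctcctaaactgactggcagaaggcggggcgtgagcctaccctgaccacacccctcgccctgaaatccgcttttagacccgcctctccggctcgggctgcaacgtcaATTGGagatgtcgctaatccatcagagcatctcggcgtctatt
Hnrnpa1, chr15:103240247-103240396, plus strand: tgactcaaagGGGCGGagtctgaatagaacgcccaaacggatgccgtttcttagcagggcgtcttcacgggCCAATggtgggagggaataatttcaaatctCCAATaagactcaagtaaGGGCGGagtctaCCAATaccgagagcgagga
Srsf5, chr12:80945349-80945498, plus strand: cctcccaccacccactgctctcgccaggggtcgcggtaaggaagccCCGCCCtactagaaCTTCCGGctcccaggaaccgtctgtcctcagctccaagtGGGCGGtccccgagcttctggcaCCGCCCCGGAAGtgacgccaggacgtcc
Snrpe, chr1:133610281-133610430, minus strand: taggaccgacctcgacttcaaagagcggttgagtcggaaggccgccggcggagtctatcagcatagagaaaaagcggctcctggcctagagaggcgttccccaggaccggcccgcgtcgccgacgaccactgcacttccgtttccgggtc
Prpf8 held 1 CCAAT box on the reverse strand, Hnrnpa1 held 3 CCAAT boxes and 2 GC boxes, and Srsf5 held 2 ETS motifs and 3 GC boxes, of which 1 ETS motif and 1 GC box overlap. Snrpe held no match in these 150 bases, but it counts among the members with an ETS motif in the longer windows below. None of the 4 stretches had a TATA box. Over the 300-base promoter windows (250 before to 50 after the start, the first entry of each gene), 66 of the 78 members were matched. The CCAAT box was in 33 of the 66 and in 39.6% of 9144 protein-coding genes, and the ETS motif in 30.3% against 19.6%. The GC box was in 71.2% of the members and 65.0% of the protein-coding genes, the NRF1 motif in 18.2% against 11.2%, the E-box in 12.1% against 10.5% and the TATA box in 9.09% against 6.64%. The median log2 fold change was 0.024 for members with an ETS motif and -0.096 for those without one. For the CCAAT box it was -0.099 with and -0.035 without, and for the E-box -0.01 with and -0.089 without. The NRF1 motif had -0.104 with and -0.055 without, the GC box -0.081 and -0.071, and the TATA box -0.053 and -0.076.

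The next comparison set small core proteins against long factors by gene length. Length here is the deposited length of a gene, in bp of annotated exons. The 24 small core genes had a median length of 2805 bp. Outside them, 27 genes at or above the factors' median length of 5550.0 bp are called long factors and had a median length of 7354 bp. Long factors had 15 positive and 12 negative fold changes with a median of 0.048, and small core genes 3 positive and 21 negative ones with a median of -0.11, a difference of 0.155 on the log2 scale. The 27 shorter factors had 10 positive and 17 negative values and a median of -0.10, close to the small core genes. By library, the mean centred log2 CPM of long factors minus that of small core genes was 0.079 and 0.10 in the knockout against -0.062 and -0.12 in the wild type. Both knockout libraries lay above both wild type libraries in this difference. Without wild type replicate 2 the median of the long factors was -0.037 and the difference 0.093, and without wild type replicate 1 the difference was 0.208.

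The order by length differed between the classes. The Spearman correlation of fold change and length was 0.731 over 13 LSm genes, 0.571 over 7 Sm genes, 0.553 over 20 hnRNP genes and 0.509 over 11 SF3A, SF3B and U2AF genes. It was 0.253 over 13 PRPF factors and 0.103 over 10 SR genes, where the long Srsf3 had a negative and the short Srsf4 a positive value. Of the 24 small core genes, the 19 under 4000 bp were all negative, while 3 of the 5 at 4000 bp or more were positive. Of the other 54 members, the 17 under 4000 bp had 6 positive and 11 negative values and a median of -0.16, and the 37 longer ones 19 positive and 18 negative values and a median of 0.012. Across the 78 members the Spearman correlation of fold change and length was 0.514, given as a description of genes that share the same 4 libraries. It was 0.663 over the 24 small core genes and 0.384 over the 54 others.

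All protein-coding genes showed a length trend of the same direction. Over 9096 of them, those at or above a mean log2 CPM of 3, the Spearman correlation of fold change and length was 0.341. By library, the mean centred log2 CPM of those at or above 5550.0 bp minus that of those under 3000 bp was 0.13 and 0.062 in the knockout against -0.10 and -0.093 in the wild type. Under 2000 bp the median log2 fold change was -0.29 for 9 splicing genes, with 0 positive values, and -0.14 for all protein-coding genes in this set. The splicing genes were not filtered by level, so the 9 include Lsm5 and Lsm7, the only members under a mean log2 CPM of 3. From 2000 bp to under 3000 bp the medians were -0.092 for 15 splicing genes and -0.052 for all protein-coding genes, and from 3000 bp to under 4000 bp they were -0.17 for 12 splicing genes and -0.015 for all. From 4000 bp to under 6000 bp they were -0.017 for 17 splicing genes and 0.024 for all, and from 6000 bp to under 8000 bp 0.012 for 15 and 0.075 for all. At 8000 bp or more the medians were 0.065 for 10 splicing genes and 0.14 for all. In each of the 6 length ranges the splicing genes had the lower median. Whether this gap differs from that of other gene groups was not tested.

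**Figure D3:**
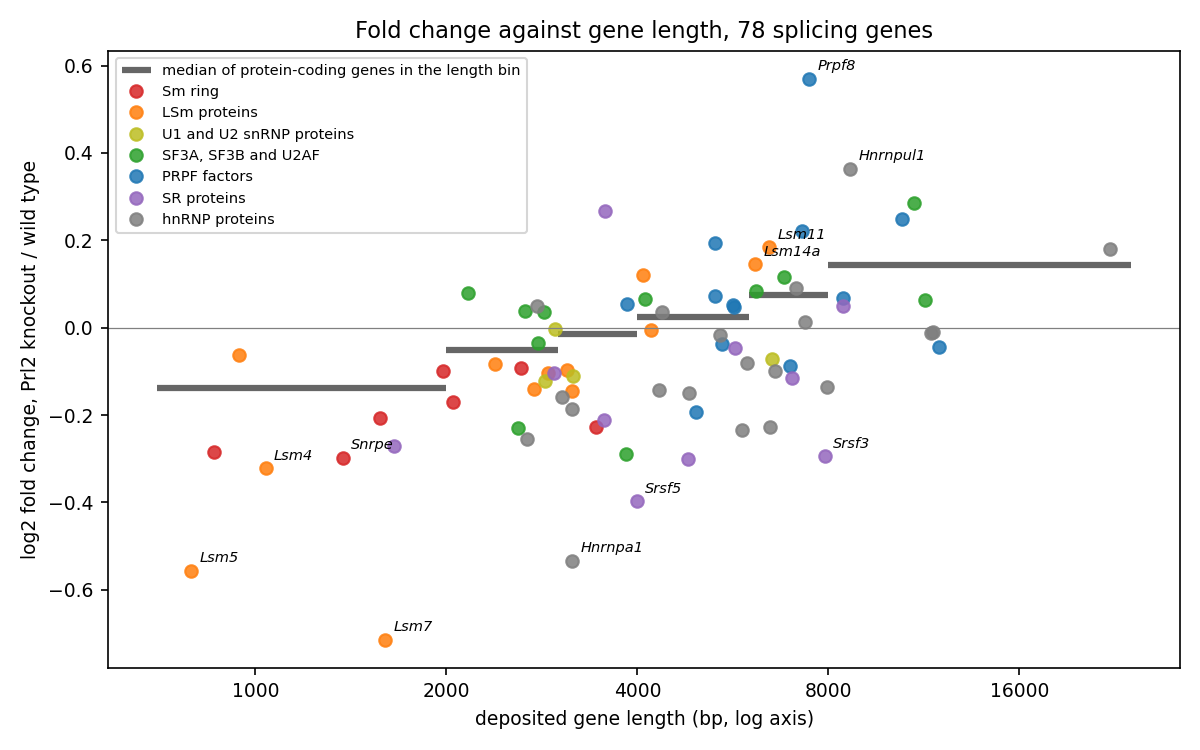
Log2 fold change, Prl2 knockout over wild type (y axis), against deposited gene length in bp (x axis, log scale) for 78 splicing genes coloured by class, with black bars for the median of protein-coding genes in each length range. The bars cover genes at or above a mean log2 CPM of 3, while the splicing genes are not filtered by level. The bars climb from -0.14 to 0.14 with length, and the splicing genes follow them with Prpf8 above and Hnrnpa1, Srsf5 and Srsf3 below.

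When each library's trend of log2 CPM on length was removed before the same fit, the gap between long factors and small core genes closed. The medians became -0.077 for long factors and -0.073 for small core genes, a difference of -0.0041. The Sm ring median became -0.079 with 6 of 7 values negative, and the PRPF median 0.0043 with 7 positive and 6 negative values. SR proteins kept a median of -0.17 with 9 of 10 values negative, and the hnRNP median became -0.15 with 16 of 20 negative. The median over all 78 was -0.074, with 26 positive and 52 negative values, where 50% of all genes were positive in that fit. At an unadjusted p under 0.05 there were 1 higher member, Prpf8, and 6 lower ones, where 4.22% and 3.5% of all genes had such values. Srsf3, at 7899 bp one of the longest SR genes, had a log2 fold change of -0.39 with the trend removed, and Srsf5 likewise had -0.39. Prpf8 had 0.48 and Hnrnpa1 -0.50, while Snrpe had -0.15 and Lsm4 -0.14. In that fit edgeR's quasi-likelihood test called 0 members, with an adjusted p of 0.624 for Prpf8, Hnrnpa1, Srsf5 and Srsf3.

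**Figure D4:**
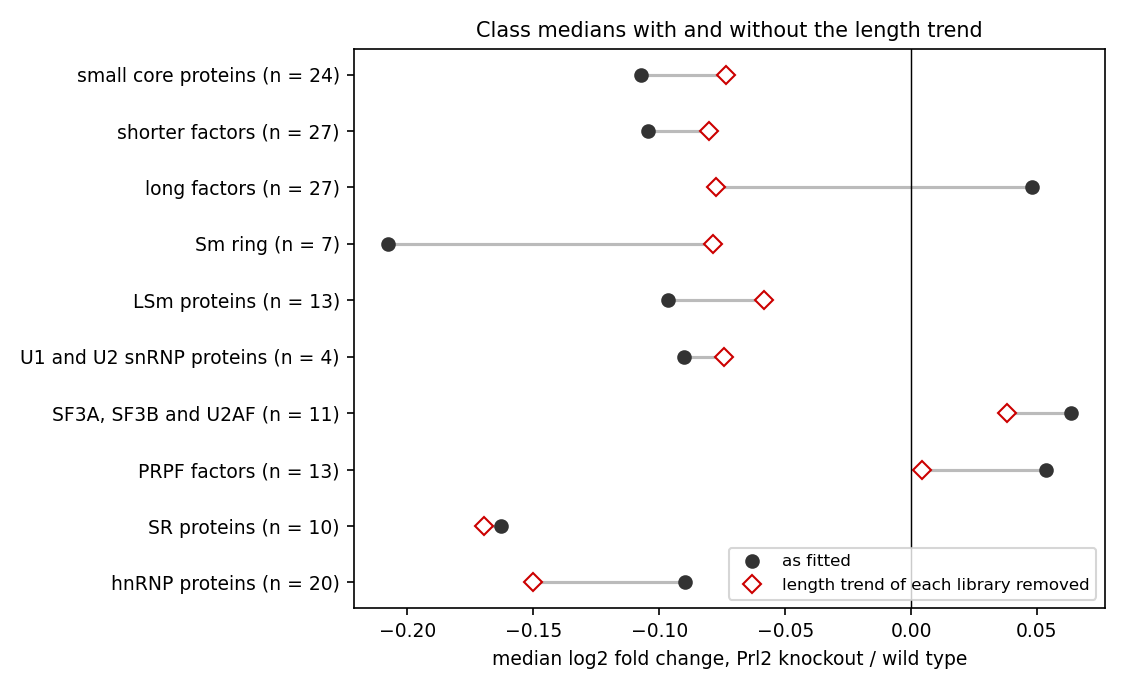
Median log2 fold change, Prl2 knockout over wild type (x axis), for 3 size groups and 7 classes of splicing genes (rows), as fitted (filled circles) and after removal of each library's length trend (open diamonds). Long factors go to -0.077 and the Sm ring to -0.079 without the trend, while SR proteins stay at about -0.17.

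Levels per length differed widely inside each class and little between genotypes. On the scale of CPM per kb, averaged over the 4 libraries, the class medians ran from 15.8 for LSm proteins and 15.8 for PRPF factors to 55.8 for hnRNP proteins and 69.1 for SR proteins. The median over all genes was 6.45 CPM per kb and over the 78 it was 24.1. The highest levels per length were those of Hnrnpa2b1 (254 CPM per kb), Hnrnpa0 (234), Hnrnpab (204), Snrpb (196) and Srsf2 (145). Within the Sm ring, whose proteins are built into the particle in equal numbers, the level per length ran from 13.3 CPM per kb for Snrpg and 19.3 for Snrpf to 196 for Snrpb. Of the 7 Sm genes, 5 have processed copies, described below, which can share reads with them, while Snrpb has 0. Gm8186, a copy identical to Snrpg where matched, had 340 and 286 counts in the knockout and 331 and 308 in the wild type. Snrpg itself had 319 and 270 in the knockout and 340 and 326 in the wild type. Lsm7 was the lowest of all members at 0.977 CPM per kb, and it too has a listed copy of 100% identity, Gm10146. The effect of copies on these levels was not tested.

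**Figure D5:**
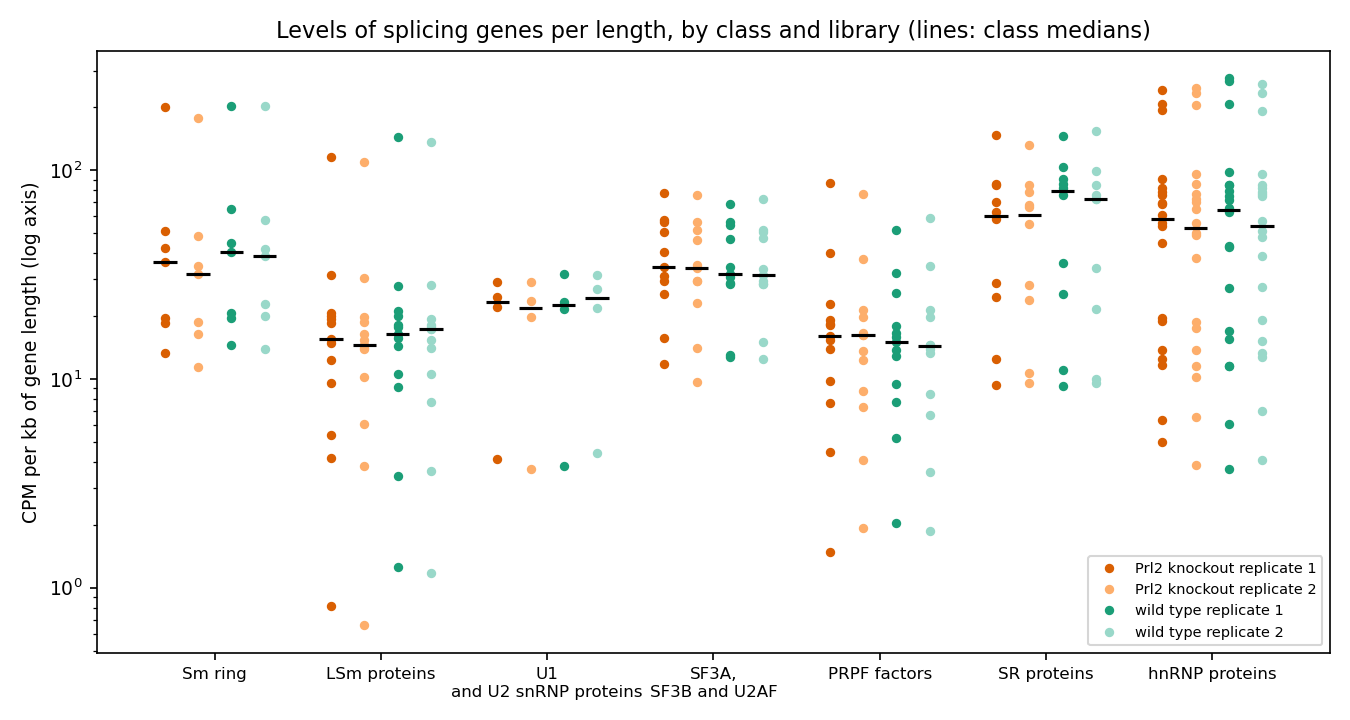
Level per length of each splicing gene, in CPM per kb (y axis, log scale), in 7 classes with the Prl2 knockout libraries left of the wild type libraries and black lines for class medians. The SR and hnRNP classes have the highest medians in all 4 libraries, and Lsm7 is the lowest gene.

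Many members have processed copies elsewhere in the genome, which makes their counts uncertain, since reads can match the gene and the copy. A processed pseudogene of the annotation was assigned to a member where it matched a transcript of it best among protein-coding genes, at 90% identity or more over at least 50% of the copy and 200 bp. By this count 37 of the 78 members (47.4%) had at least 1 copy, against 12.3% of all protein-coding genes in the table. Hnrnpa3 had 37 copies, Hnrnpa1 16, Snrpc 8, Hnrnpf 7 and Snrpa 6. Members with copies had a median level of 19.7 CPM per kb, and those without had 29.5. Their median log2 fold changes were -0.099 with 11 of 37 positive, and -0.035 with 17 of 41 positive.

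Of 128 such copies, 38 were themselves in the table, and their values did not always follow those of the parent. The copy of Srsf5 on chromosome 4, Gm12966, matches it at 99% identity and had 506 and 481 counts in the knockout against 541 and 480 in the wild type. Its log2 fold change was -0.079 (SE 0.136), against -0.40 for Srsf5. The copy of Srsf3, Gm9761, had 0.093 (SE 0.186) against -0.29 for Srsf3, and the copy of Hnrnpk, Gm7964, had 0.073 (SE 0.126) against -0.23 for Hnrnpk. Snrpert, a retrotransposed copy of Snrpe, had 213 and 163 counts in the knockout and 272 and 215 in the wild type, a log2 fold change of -0.40 (SE 0.232) beside -0.30 for Snrpe. The one listed copy of Hnrnpa1, Gm10052, is identical over 960 bp and had 77 and 87 counts in the knockout and 90 and 76 in the wild type, so its groups overlapped while those of Hnrnpa1 did not. Of the 38 copies 24 fold changes were below 0 and 14 above, and 27 had the sign of their parent. Exons of 17 members also overlap those of another listed gene, among them Snrpf (567 of 861 bp, with Ccdc38) and Srsf2, and the strand setting of the counting is not given in the sources used here.

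Other genes of the splicing machinery, from lists that hold no member, showed no shift of the whole. Of 131 listed, 128 were measured, 65 above 0 and 63 below, and their median was 0.013. edgeR's quasi-likelihood test called 0 of them, and so did limma-voom, DESeq2 and edgeR's likelihood ratio test. At an unadjusted quasi-likelihood p under 0.05 there were 7 higher and 1 lower of the 128. Over all genes these shares were 5.66% higher and 4.23% lower. Snrnp200, the U5 helicase that unwinds U4 from U6 and works beside Prpf8, was at 337 and 299 CPM in the knockout and 201 and 237 CPM in the wild type. Its log2 fold change, 0.54 (SE 0.130, edgeR quasi-likelihood adjusted p = 0.474), was close in size to that of Prpf8. Eftud2, the U5 GTPase beside them, is named in addition, with its values already known, and had 0.099 (SE 0.100). Snrnp70, the U1 70K protein, was at 293 and 265 CPM in the knockout and 356 and 301 CPM in the wild type, with a log2 fold change of -0.24 (SE 0.128).

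Among the proteins that join at the catalytic stage, 15 of 23 had a positive fold change, with a median of 0.065. The knockout lay above the wild type without overlap in 12 and below it in 3, where the shares over all genes were 22.2% and 21.9%. Aqr, the intron-binding helicase, was at 117 and 115 CPM in the knockout and 80.5 and 96.2 CPM in the wild type (log2 fold change 0.40, SE 0.123, edgeR quasi-likelihood adjusted p = 0.474), and Ppie had the most negative value of the list, -0.29 (SE 0.119). Of the U2-associated list, Dhx15, the helicase that takes spliceosomes apart, had 0.27 (SE 0.111), and Phf5a, a small SF3B subunit, -0.28 (SE 0.117). Of 18 SR-like proteins and their kinases, 8 were positive and 10 negative. Clk1, a kinase that phosphorylates SR proteins, was at 136 and 128 CPM in the knockout against 199.5 and 144 CPM in the wild type (log2 fold change -0.38, SE 0.172, edgeR quasi-likelihood adjusted p = 0.534), and wild type replicate 1 stood apart from the others. Scaf4 was the highest of that list at 0.33 (SE 0.125).

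The minor spliceosome list, whose proteins remove a rare class of introns, had 3 of 10 positive, from Snrnp35 (0.27, SE 0.206) to Zcrb1 (-0.27, SE 0.151). Of 11 exon junction genes 6 were positive, with Sap18 at 0.22 (SE 0.150) and Rbm8a at -0.23 (SE 0.109). Of 24 other regulators 13 were positive, with Pcbp2 at 0.20 (SE 0.111) and Tia1 at -0.33 (SE 0.190) at the ends, leaving out genes under a mean log2 CPM of 3. In the list for snRNP assembly, 8 of 17 were positive, and the extremes were Gemin5 (0.25, SE 0.116) and Wdr77, a partner of the methylase that modifies Sm proteins (-0.36, SE 0.165). None of the genes named from these lists passed the test.

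Proliferation genes such as Mki67 and Top2a had higher values in the knockout. All 16 were measured and all 16 had a positive fold change, with a median of 0.31, and their summed level was 3719 and 3030.4 CPM in the knockout against 2416 and 2698 CPM in the wild type. Their part in the values of the splicing genes was not tested.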

How the data were processed

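Messenger RNA levels were measured in 4 libraries, 2 Prl2 knockout and 2 wild type, with 14625725 to 15422309 counts each. The authors deposited raw counts per gene, with log2 CPM and log2 RPKM values, gene lengths, and the p-values of their own comparison. The submitters' processing notes name STAR, Bowtie2, featureCounts and the genome build mm10, without versions or a strand setting. The deposited table holds no gene under 23 counts in total, so no further filter on low counts was applied.

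The deposited counts of all 13614 genes were fitted with edgeR 4.0.16 (R 4.3.3, TMM scaling, quasi-likelihood test, genotype as the only term), with Benjamini-Hochberg adjustment over all genes at a threshold of 0.05. Fold changes are knockout over wild type, intervals are at 95%, and plotted or centred log2 CPM used a prior count of 2. DESeq2 1.42.0, limma-voom (limma 3.58.1), edgeR's likelihood ratio test, other scalings, a mean CPM filter of 1, each library left out, a replicate block, protein-coding genes alone, and removal of each library's length trend (loess, span 0.5, as offsets) were the alternatives. Processed copies were matched with BLAST 2.17.0 to GENCODE M21, in which all 78 members were found by ID.

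The members, classes and gene lists were chosen with earlier results of these data known, and no test was made over a list. Genes were named by a rule: per class the 3 highest per length and those with the largest positive and negative fold change at a mean log2 CPM of 3 or more, all with an unadjusted p under 0.01, the 2 with the widest replicate gap, and the extremes of each list of other spliceosome genes. Further genes are named to show the range within a class, after their values were seen, and some single values are not reported here. Libraries of one genotype differed by more than sampling noise (chi-square per gene 18.7 in the knockout pair and 33.8 in the wild type pair). Counts carry no molecular identifiers.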

Additional observations from a re-analysis of the deposited data

How the results depend on the processing

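The number of splicing genes called was 0 under every alternative except DESeq2, where it was 2. Over all genes, 90 were called by DESeq2, 65 by the likelihood ratio test and 0 to 8 without each library in turn, against 1, and the cause was not tested. Without each library in turn the median log2 fold change lay between -0.11 and -0.028 over the splicing genes, between -0.17 and -0.073 over the small core proteins, and between -0.037 and 0.074 over the long factors. The difference of long factors and small core proteins lay between 0.093 and 0.208, and 57 to 65 members (73.1% to 83.3%) had groups without overlap, since fewer values are compared, where the shares over all genes were 69.3% to 76%. With the length trend removed the long factors' median was -0.077 and the difference -0.0041, which the removal itself brings about. The other alternatives left the medians within the spread between replicates, and no alternative called another spliceosome gene. The count without overlap rests on CPM, so it has no value under the other tests or the block.

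Among named genes, 605 of the repeated values kept direction and call. Prpf8 (0.57) and Hnrnpa1 (-0.54) were called by DESeq2. Snrpa, near 0, turned positive under limma-voom (0.0062), the replicate block (0.0057) and length removal (0.041), and without each library in turn ran between -0.17 and 0.16. With the length trend removed Lsm10 had 0.12, Sf3b1 -0.079 and Snrpb 0.0021. Without each library in turn, U2af2 ran between -0.019 and 0.14, Prpf39 between -0.30 and 0.24, Lsm2 between -0.37 and 0.048, Prpf38b between -0.22 and 0.040, Hnrnpab between -0.014 and 0.10, and Sf3b1 between -0.0046 and 0.12. The cause was not tested.

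Replicate numbers are shared between the genotypes, but deviations of same-numbered libraries correlated at -0.142, so the numbers were not taken as pairs. The replicate block called 1 gene in all and 0 splicing genes, with medians of -0.074 over the splicing genes, -0.11 over small core proteins and 0.048 over long factors. A crossed replicate block, added after seeing the data, called 1 gene in all, 0 splicing genes and 0 other spliceosome genes. With 2 libraries per genotype, the 95% intervals of most members include 0, and the 2 members under 3 log2 CPM, Lsm5 and Lsm7, have the widest errors.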
